A study of Mus musculus with 13 samples.

Results

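Tifab loss on a background that already lacks miR-146a was examined by setting 4 dKO libraries (TIFAB-/-;miR146a-/-) against 3 miR-146a_KO libraries (TIFAB+/+;miR-146a-/-) of LK bone marrow cells. LK cells carry c-Kit and no lineage or Sca-1 antigen, which marks progenitors already committed to myeloid, erythroid or megakaryocyte fates. The genes described average 0 log2 CPM (reads scaled to the total of each library, on a log2 scale) or more over these 7 libraries, which were 11977 of the 24062 rows measured. The lowest mean kept was 0.0004 log2 CPM and the highest left out was -0.0012. Both groups lack miR-146a and differ in their Tifab alleles. In the rest of the series, 3 TIFAB_KO libraries (TIFAB-/-;miR-146a+/+) and 3 WT libraries hold the same loss with miR-146a present. The protocol gives an age of 2 to 5 months, without a clear word on whether of donors or recipients, and marrow of each genotype repopulated Boy/J recipients irradiated with 7.0 Gy and then 4.75 Gy 3 h later. The protocol names 3 mice per group while dKO has 4 libraries, and no label ties a library to a mouse, so every p-value below measures the spread between libraries. Neither the part of Tifab that its allele removes nor the share of recipient cells left in a chimera is given in the sources used here.

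TIFAB is a relative of TIFA, an adaptor that brings TRAF6 together and so passes signals of innate immune receptors on to NF-kB, and TIFAB is known as an inhibitor of TRAF6. The microRNA miR-146a restrains the same route from another side, by pairing with the messages of Traf6 and Irak1. Both genes are lost together in human myeloid disease with a deletion of the long arm of chromosome 5. The mature miR-146a strand, which both groups lack by design, is shown for reference with its seed (bases 2 to 8) in capitals, from RefSeq on GRCm38.p6 at chr11:43374435-43374456 on the minus strand.
miR-146a-5p: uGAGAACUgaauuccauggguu
The row of its gene, Mir146, had 0 reads in all 7 libraries, as in WT and TIFAB_KO, so the loss of miR-146a could not be checked there. Counting error alone allows up to 3 reads in such a library, which is 0.256 to 0.383 CPM in these 7, and whether the kit retains so short a transcript was not tested.

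Library totals were 9.52, 8.08, 8.68 and 11.7 M reads in dKO replicates 1 to 4, against 8.90, 10.5 and 7.83 M in miR-146a_KO replicates 1 to 3. Precursor ribosomal RNA (45S) took 4.36 to 6.43% of reads in dKO and 3.85 to 6.99% in miR-146a_KO. Replicate 3 of dKO was the library least like the other 6 (median r 0.959 across genes, against 0.967 to 0.978 for the rest). Markers of the sort fitted the label, with Kit high and Ly6a low. Kit lay at 386 to 447 CPM in dKO and 345 to 456 CPM in miR-146a_KO, while the Sca-1 gene Ly6a lay at 1.11 to 5.30 CPM in dKO and 1.23 to 2.56 CPM in miR-146a_KO. The T cell gene Cd3e had at most 7 reads in a dKO library and 2 in a miR-146a_KO library. Itgam, which myeloid progenitors also express, lay at 40.4 to 87.5 CPM in dKO and 47.7 to 68.3 CPM in miR-146a_KO.

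Tifab itself was low in each dKO library. It had 6.20, 4.21, 3.23 and 11.0 CPM in dKO replicates 1 to 4 (59, 34, 28 and 129 reads), against 69.2, 70.8 and 64.4 CPM in the 3 miR-146a_KO libraries (616, 746 and 504 reads). The highest dKO library, replicate 4, lay well below the lowest miR-146a_KO library. On the log2 scale Tifab averaged 2.48 ± 0.76 in dKO and 6.09 ± 0.07 in miR-146a_KO (SD, n = 4 and 3), and it fell by 3.61 ± 0.29 (SE; limma adjusted p = 2.81e-06), which is 12.2 times lower. In the pair with miR-146a present it was 8.95, 11.7 and 12.8 CPM in TIFAB_KO, against 40.4, 49.4 and 39.6 CPM in WT, a fall of 1.95 ± 0.31 (adjusted p = 0.0379). The difference between these 2 falls was -1.66 ± 0.43 and did not pass (interaction adjusted p = 0.601). Reads on Tifab remained in every dKO library, and whether they come from donor or recipient cells was not tested.

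Few genes changed with Tifab loss when miR-146a was absent. Of 11977 genes tested, 6 passed an adjusted p of 0.05 (0.0501% of those tested), 4 higher in dKO (0.0334%) and 2 lower (0.0167%). Those higher were 4930503L19Rik, 1700112E06Rik, Stard6 and Cmss1, and those lower were Tifab and its chromosome 13 neighbour H2afy. An unadjusted p under 0.05 was held by 227 genes (1.9%), of which 105 were higher in dKO (0.877%) and 122 lower (1.02%). With no true change, a share of about 0.05 would hold such a p, so 1.9% is no excess. In 196 genes every dKO library lay above every miR-146a_KO library (1.64%), and in 253 every dKO library lay below (2.11%). With so few libraries, some genes without overlap would be seen by chance alone. The median log2 fold change of all genes was -0.01, and 52.1% of genes lay below 0. The median size of a log2 fold change was 0.12 and the median SE 0.22, so a change of typical size could not be told from the spread at this number of libraries. Log2 fold changes of at least 1 in size were seen in 128 genes, of which 57 had an unadjusted p under 0.05. In bulk libraries such as these, fewer cells of a type and less RNA per cell cannot be told apart.

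**Figure D1:**
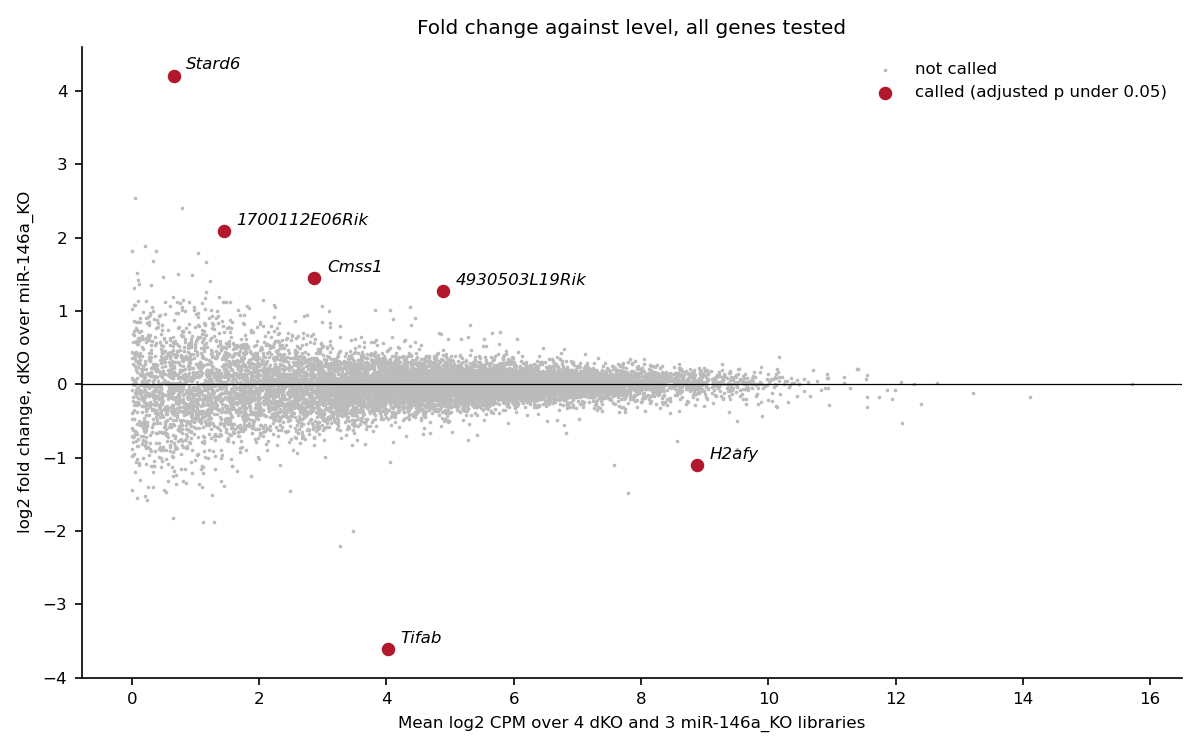
Log2 fold change of dKO over miR-146a_KO (vertical axis) against the mean log2 CPM over the 7 libraries (horizontal axis), 1 point for each of the 11977 genes tested. The 6 called genes are in red; Tifab and H2afy lie below 0, and 4930503L19Rik, 1700112E06Rik, Cmss1 and Stard6 above it.

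H2afy, which encodes the histone variant macroH2A1, was the other gene that fell. It lay at 8.55, 8.57, 8.34 and 8.18 log2 CPM in dKO replicates 1 to 4, against 9.58, 9.60 and 9.37 in miR-146a_KO replicates 1 to 3. The groups did not overlap, and the drop was 1.11 ± 0.15 (limma adjusted p = 3.72e-03, n = 4 and 3), which is 2.15 times lower. TIFAB_KO libraries had 8.72, 8.18 and 8.25 log2 CPM and WT libraries 9.27, 9.48 and 9.59, a fall of 1.06 ± 0.16 (adjusted p = 0.0379). The effect of Tifab loss on H2afy differed between the miR-146a states by -0.04 ± 0.23 (interaction adjusted p = 1.00). H2afy missed the threshold without miR-146a_KO replicate 2 (adjusted p = 0.0583).

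H2afy is the closest tested gene to Tifab. It lies at chr13:56073619-56136361 (mm10, minus strand), 37.3 kb from Tifab at chr13:56173704-56178885 on the same strand. Of 59 annotated genes within 1 Mb of Tifab, 39 were rows of the table and 21 reached the expression minimum. Of these 21, 10 lay below 0 and 11 above, with a median log2 fold change of 0.00. Besides H2afy, 1 further neighbour had an unadjusted p under 0.05. This was Tgfbi, which encodes an extracellular matrix protein induced by TGF-beta and starts 430.6 kb from Tifab on the other side. Tgfbi averaged 1.86 ± 0.92 log2 CPM in dKO and 3.32 ± 0.17 in miR-146a_KO (SD), a difference of -1.46 ± 0.38 that did not pass (limma adjusted p = 1.00). In TIFAB_KO against WT it had -0.82 ± 0.41. The other 19 neighbours lay between -0.25 and 0.41.

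**Figure D2:**
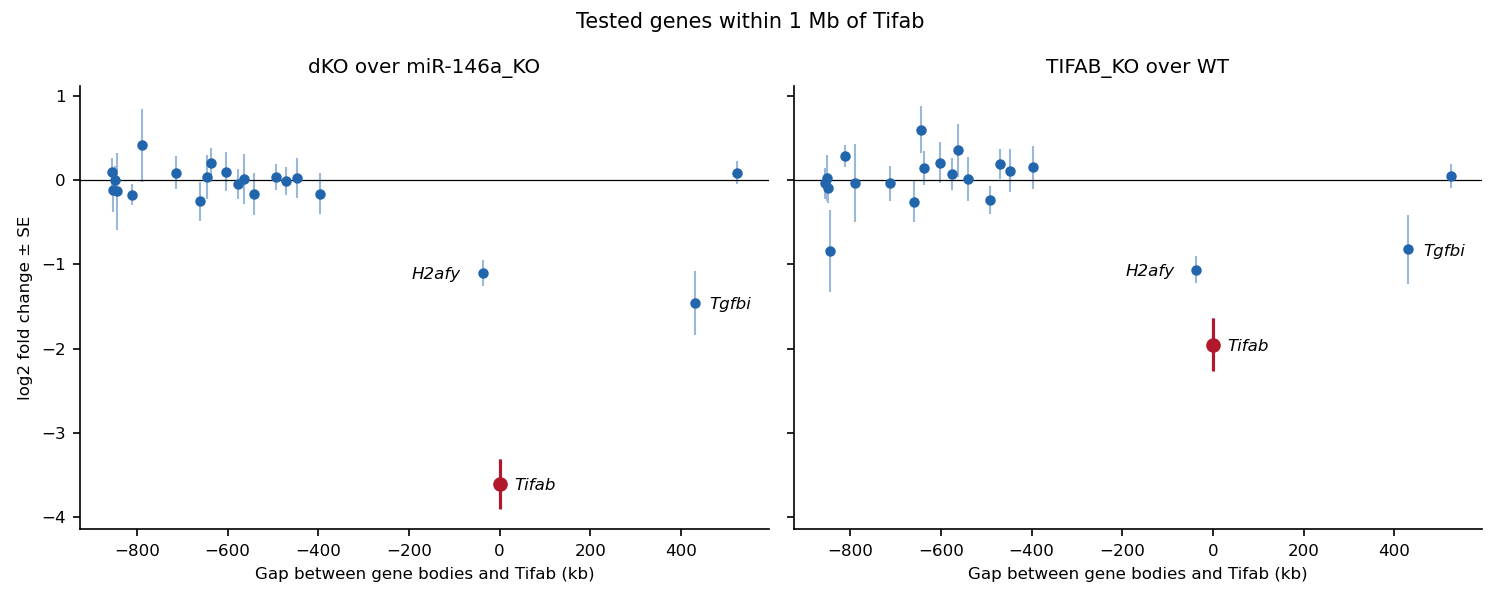
Log2 fold change ± SE of the tested genes within 1 Mb of Tifab against their distance from it in kb, for dKO over miR-146a_KO (left) and TIFAB_KO over WT (right). Tifab is in red at 0 kb; H2afy stands at -1.11 on the left and -1.06 on the right, and Tgfbi at -1.46 and -0.82.

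Each of the 4 genes that rose had its lowest level of all groups in miR-146a_KO. Cmss1, which encodes a protein linked to the small ribosomal subunit (chr16:57302000-57606864, minus strand), lay at 3.88, 3.26, 3.02 and 3.78 log2 CPM in dKO, against 1.57, 2.04 and 2.51 in miR-146a_KO. It rose by 1.45 ± 0.25 (SE; limma adjusted p = 0.0387, n = 4 and 3), and no dKO library reached down to the miR-146a_KO libraries. TIFAB_KO had 4.64, 4.31 and 4.63 log2 CPM and WT 4.51, 4.63 and 4.44, so every dKO library also lay below every library of these 2 groups. With miR-146a present, Tifab loss gave 0.00 ± 0.27, and the difference of the 2 effects was 1.44 ± 0.37 (interaction adjusted p = 0.601). Filip1l lies within Cmss1 on the opposite strand and had -0.16 ± 0.31. As the library kit does not record strand, reads of both genes where they overlap cannot be told apart.

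The remaining 3 called genes fall outside the naming rule and were chosen for the text after their values were seen. 4930503L19Rik, a gene of unnamed function (chr18:70452212-70472509, minus strand), had 5.44, 5.57, 5.26 and 5.47 log2 CPM in dKO, against 4.06, 4.32 and 4.09 in miR-146a_KO. It rose by 1.28 ± 0.17 (limma adjusted p = 2.12e-03), and its call held without each library in turn. TIFAB_KO had 4.98, 5.21 and 4.87 log2 CPM and WT 4.84, 5.24 and 4.83, so dKO lay above, and miR-146a_KO below, every library of both. Its interaction of 1.23 ± 0.24 did not pass (adjusted p = 0.544).

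Stard6, which encodes a lipid-binding START-domain protein (chr18:70472454-70501066, plus strand), lies head to head with 4930503L19Rik. The genes overlap only at their starts, from 70472454 to 70472509, and reads in this short stretch cannot be assigned to one of them. Stard6 was detected by 47, 46, 52 and 62 reads in dKO replicates 1 to 4, against 15, 2 and 0 reads in miR-146a_KO replicates 1 to 3. Every dKO library exceeded every miR-146a_KO library, and the fitted log2 fold change was 4.21 ± 0.71 (limma adjusted p = 0.0263). This size depends on the 0.5 read added before taking logs, and it was 3.10 without miR-146a_KO replicate 3, the library with 0 reads. TIFAB_KO had 36, 39 and 63 reads and WT 26, 20 and 15. Poli, a DNA polymerase gene 7.6 kb beyond Stard6, had 0.43 ± 0.18 (limma adjusted p = 1.00).

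1700112E06Rik, whose position was not matched in the annotation used, was close to absent in miR-146a_KO. It had 1.68, 2.67, 2.83 and 2.19 log2 CPM in dKO (30, 51, 61 and 53 reads), against 0.09, 0.25 and 0.42 in miR-146a_KO (9, 12 and 10 reads). It rose by 2.09 ± 0.32 (limma adjusted p = 8.31e-03). TIFAB_KO had 2.88, 2.83 and 2.74 log2 CPM and WT 2.98, 2.67 and 2.95, and its interaction of 2.14 ± 0.46 did not pass (adjusted p = 0.544). The calls of 1700112E06Rik, Cmss1 and Stard6 were each lost without 1 or more single libraries. That of 1700112E06Rik was lost without miR-146a_KO replicate 1 or 2 or dKO replicate 2 (adjusted p up to 0.0661). Stard6 held without WT replicate 1, TIFAB_KO replicate 1 or miR-146a_KO replicate 1, and Cmss1 without miR-146a_KO replicate 3 or dKO replicate 3, but neither held without any of the other libraries (adjusted p up to 0.223 for Stard6 and 0.495 for Cmss1).

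**Figure D3:**
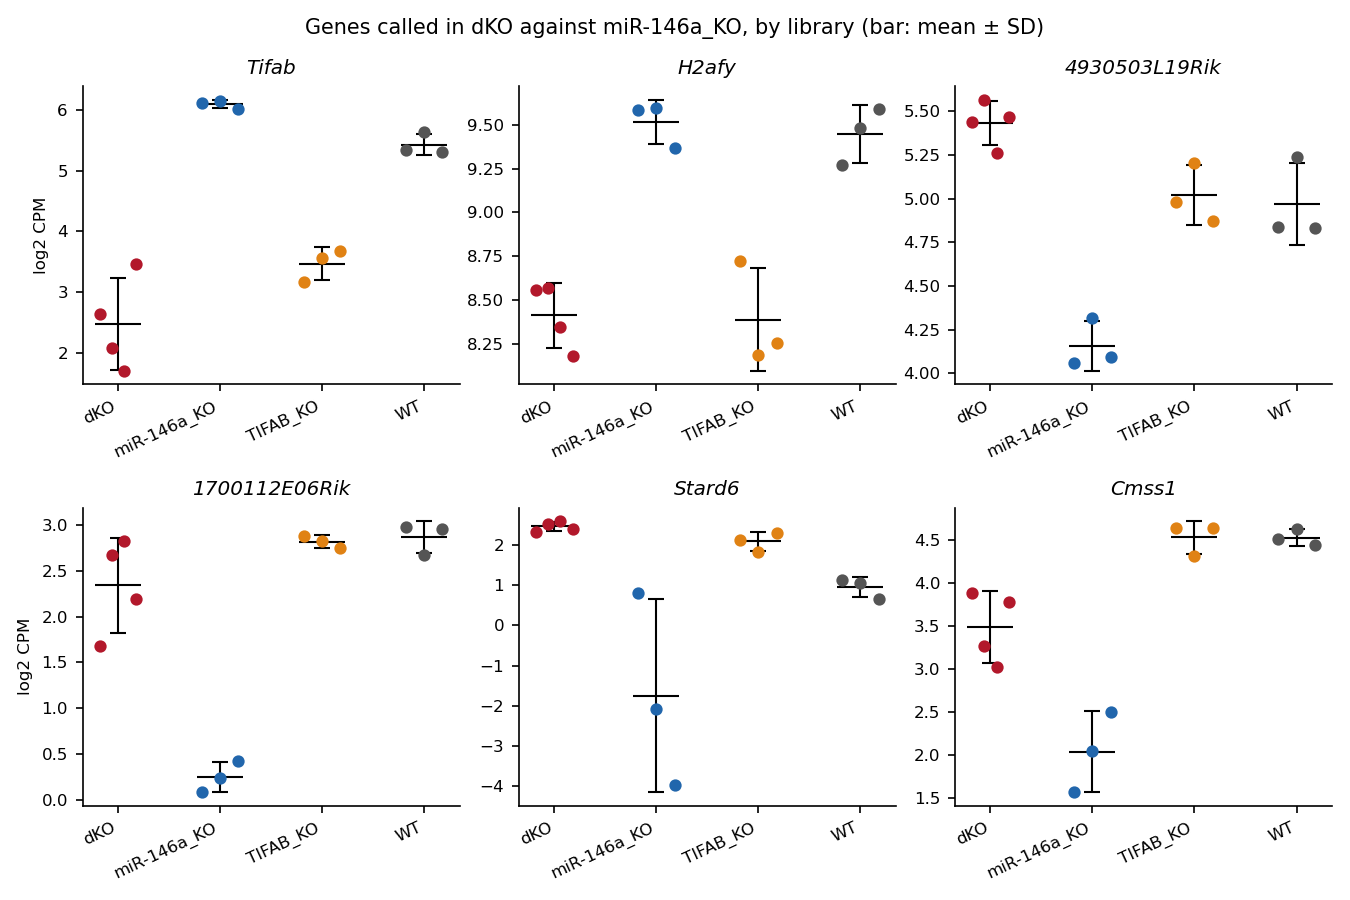
Log2 CPM of the 6 called genes in each library (points) with the mean ± SD of each group (bars), in dKO, miR-146a_KO, TIFAB_KO and WT. Tifab and H2afy are low in both groups without Tifab; Cmss1, 1700112E06Rik and 4930503L19Rik are lowest in miR-146a_KO, and Stard6 had 15, 2 and 0 reads there.

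Next in order came genes that did not pass, named because their groups did not overlap and their unadjusted p was smallest. On the lower side Efcab7, which encodes a ciliary EF-hand protein (chr4:99829198-99912788), stood nearest to the threshold. It had 3.73, 3.62, 3.43 and 3.61 log2 CPM in dKO, against 4.51, 4.68 and 4.76 in miR-146a_KO, a difference of -1.05 ± 0.21 (limma adjusted p = 0.142). TIFAB_KO had 3.13, 3.49 and 3.59 log2 CPM and WT 2.93, 3.28 and 3.60, so miR-146a_KO was the high group. Among the alternative fits, Efcab7 passed with library quality weights (adjusted p = 0.0352). Further down the list stood Manf, an endoplasmic reticulum stress factor, at -0.54 ± 0.15, the co-chaperone gene Bag3 at -0.76 ± 0.22 and the chemokine gene Ccl4 at -0.73 ± 0.22. Reep1 (-1.82 ± 0.53), which shapes the endoplasmic reticulum, Mad2l1bp (-1.10 ± 0.34), which silences the spindle checkpoint, and BC028528 (-0.94 ± 0.28) completed the lower side (adjusted p = 1.00 each).

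On the higher side the linker histone gene H1f0 came first. Its log2 CPM was 5.54, 5.41, 5.38 and 5.44 in dKO, against 4.70, 4.97 and 4.80 in miR-146a_KO, a difference of 0.62 ± 0.16 (limma adjusted p = 1.00). H1f0 averaged 5.58 in TIFAB_KO and 5.64 in WT, near the dKO level. The platelet chemokine gene Ppbp had 4.97, 4.36, 4.95 and 4.64 log2 CPM in dKO, against 3.89, 4.05 and 3.82 in miR-146a_KO, a difference of 0.81 ± 0.24, and it averaged 5.04 in TIFAB_KO and in WT. Wdfy1, an endosomal adaptor gene whose product links TLR3 and TLR4 to the adaptor TRIF, had another order of groups. It had 6.27, 6.13, 6.05 and 5.95 log2 CPM in dKO, against 5.35, 5.30 and 5.50 in miR-146a_KO, while TIFAB_KO averaged 3.57 and WT 3.86, so its highest level was in the group without both genes. The Wdfy1 difference of 0.72 ± 0.22 did not pass (limma adjusted p = 1.00).

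The other genes named on the higher side were less abundant. The chromatin protein gene Ptms had 0.87 ± 0.27, the kinesin gene Kif21a 1.68 ± 0.47 and the nucleoporin gene Nup43 0.53 ± 0.15. Lyplal1, a lysophospholipase-like gene, had 2.41 ± 0.76, the netrin gene Ntn1 1.80 ± 0.57 and the actin-bundling gene Pls3 1.13 ± 0.36 (limma adjusted p = 1.00 for each of these 6). Leaving out miR-146a_KO replicate 1 took the Ptms difference to 0.62, and leaving out single libraries moved that of Lyplal1 between 1.87 and 3.14.

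Of the genes of the route that TIFAB and miR-146a act on, none passed. TIFA, the partner that TIFAB resembles, and TRAF6 and IRAK1, the ubiquitin ligase and kinase downstream of Toll-like receptors, were looked up after values were seen. Tifa had 5.06, 5.25, 4.23 and 4.79 log2 CPM in dKO, against 5.00, 4.76 and 4.97 in miR-146a_KO, and the groups overlapped (-0.08 ± 0.20, limma adjusted p = 1.00). Traf6 had 7.52, 7.58, 7.46 and 7.08 log2 CPM in dKO, against 7.31, 7.60 and 7.32 in miR-146a_KO (-0.00 ± 0.19). Irak1 had 7.49, 7.40, 7.41 and 7.46 log2 CPM in dKO, against 7.50, 7.58 and 7.37 in miR-146a_KO (-0.04 ± 0.12). The 95% intervals of these differences were -0.50 to 0.34 for Tifa, -0.40 to 0.39 for Traf6 and -0.29 to 0.21 for Irak1.

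Of 43 listed TIFA, TRAF6 and Toll-like receptor components, all of them tested, 0 passed, 16 lay above 0 and 27 below, with a median of -0.05. The 1 member with an unadjusted p under 0.05 was Ly96, which encodes the TLR4 co-receptor MD-2 and was chosen for the text after its value was seen. It averaged 3.53 ± 0.37 log2 CPM in dKO and 2.53 ± 0.44 in miR-146a_KO (SD), with every dKO library above every miR-146a_KO library, a difference of 1.00 ± 0.35 (limma adjusted p = 1.00). Without miR-146a_KO replicate 3, 0 members had an unadjusted p under 0.05. The largest lower differences by limma's moderated t were those of the endosomal DNA receptor gene Tlr9 (-0.61 ± 0.37) and the TLR4 adaptor gene Ticam2 (-0.26 ± 0.19). Of 31 tested NF-kB response genes 0 passed, and 13 lay above 0 and 18 below (median -0.02). This balance depended on single libraries, as 27 of 31 lay below 0 without dKO replicate 3 (median -0.20), 20 of 31 above 0 without dKO replicate 2 (0.11), 21 of 31 below 0 without miR-146a_KO replicate 2 (-0.21) and 16 of 31 above 0 without miR-146a_KO replicate 3 (0.02). Ccl4, described above, was the 1 member with an unadjusted p under 0.05, and the cyclooxygenase gene Ptgs2 had -0.28 ± 0.20. None of 12 reported miR-146a targets passed or had an unadjusted p under 0.05 (median -0.09; the cell fate gene Numb -0.27 ± 0.19). With miR-146a present, the NF-kB response genes had a median of -0.48 between TIFAB_KO and WT, with 25 of 31 below 0. Of those, 8 had an unadjusted p under 0.05, beside 255 lower ones among all 11977 genes. The median of their interaction values was 0.42, with 22 of 31 above 0 and 0 called.

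Chaperones of the cytosol were lower in dKO as a list, with 0 members called. All 20 cytosolic heat shock genes lay below 0 (19 of 20 with median centring), with a median of -0.25 beside -0.01 for all genes. Hspd1 and Hspe1 stand in this list although they encode mitochondrial chaperones, and Cacybp was the member nearest to 0. At an unadjusted p under 0.05 there were 7 lower members and 0 higher, which is 35% of the list beside 1.02% of all genes, and in 10 of 20 every dKO library lay below every miR-146a_KO library (50% of the list, beside 2.11% of all genes). The list was written with earlier results of these data known, so its direction is a description. The mean deviation of the 20 genes from their 7-library average was -0.23, -0.24, -0.20 and -0.19 in dKO replicates 1 to 4, against 0.48, 0.21 and 0.18 in miR-146a_KO replicates 1 to 3. It varied more in the other groups, with -0.94, -0.47 and -0.30 in TIFAB_KO and -1.07, 0.22 and 0.07 in WT. Between TIFAB_KO and WT the list had a median of -0.19, with 14 of 20 below 0 and 6 above. At an unadjusted p under 0.05, 5 were lower and 0 higher, beside 255 lower ones among all 11977 genes. The interaction values of the list had a median of -0.09, with 15 of 20 below 0 and 0 called.

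Hspa1a and Hspa1b, near-identical copies of the inducible HSP70 gene between which reads may be split uncertainly, showed the widest range. Hspa1a had 7.30, 7.01, 7.45 and 6.87 log2 CPM in dKO, against 9.13, 8.57 and 8.22 in miR-146a_KO, and 4.30, 7.16 and 6.96 in TIFAB_KO, against 1.61, 8.65 and 7.84 in WT. The dKO and miR-146a_KO libraries did not overlap (-1.48 ± 1.06, limma adjusted p = 1.00), and WT replicate 1 lay far below all others. Hspa1b had -1.10 ± 1.07. The small heat shock gene Hspb1 had 1.98, 2.46, 2.68 and 2.19 log2 CPM in dKO, against 5.40, 4.30 and 3.91 in miR-146a_KO, a difference of -2.21 ± 0.74 (limma adjusted p = 1.00). Hspb1 and Hspa1a passed when the spread was taken from the 7 libraries alone (adjusted p = 0.0441 and 0.0170), where the wide spread of the WT and TIFAB_KO libraries does not enter.

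The other heat shock members with large moderated t were the co-chaperone genes Bag3 and Dnaja1 and the HSP110 gene Hsph1. Bag3 had 4.93, 4.77, 5.06 and 5.04 log2 CPM in dKO, against 6.29, 5.27 and 5.57 in miR-146a_KO, and its difference of -0.76 was -0.47 without miR-146a_KO replicate 1. Hsph1 had 9.38, 9.13, 8.99 and 9.04 log2 CPM in dKO, against 10.38, 9.67 and 10.00 in miR-146a_KO (-0.88 ± 0.34, limma adjusted p = 1.00). Dnaja1 had -0.43 ± 0.15. Without miR-146a_KO replicate 1, the library highest in the list, 19 of 20 members still lay below 0 and 3 had an unadjusted p under 0.05.

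Genes of the unfolded protein response, which raises folding capacity in the endoplasmic reticulum, leaned the same way. Of 31 tested members 0 passed, 28 lay below 0 and 3 above (26 and 5 with median centring), with a median of -0.21. At an unadjusted p under 0.05 there were 6 lower members and 0 higher, which is 19.4% of the list beside 1.02% of all genes, and 9 members had no overlap, all lower (29.0%, beside 2.11%). The 6 members became 2 without dKO replicate 2, 3 without miR-146a_KO replicate 1 or 3, and 4 without dKO replicate 4, where 22 of 31 lay below 0. This list, too, was written with earlier results known. Manf, which encodes a secreted protective factor, had 5.27, 4.99, 5.01 and 4.98 log2 CPM in dKO, against 5.73, 5.68 and 5.41 in miR-146a_KO. Creld2, which encodes a stress-induced disulfide isomerase, had 5.50, 4.58, 5.04 and 5.42 log2 CPM in dKO, against 5.80, 5.60 and 6.06 in miR-146a_KO (-0.69 ± 0.26, limma adjusted p = 1.00). Dnajb11, a cofactor of the luminal HSP70, had -0.33 ± 0.13 and the transcription factor gene Atf5 -0.89 ± 0.39. The list had a median of 0.14 between TIFAB_KO and WT, with 20 of 31 above 0. Its interaction values had a median of -0.23, with 25 of 31 below 0, 7 of them at an unadjusted p under 0.05, and 0 called. Among all 11977 genes, 306 had an interaction below 0 at such a p.

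**Figure D4:**
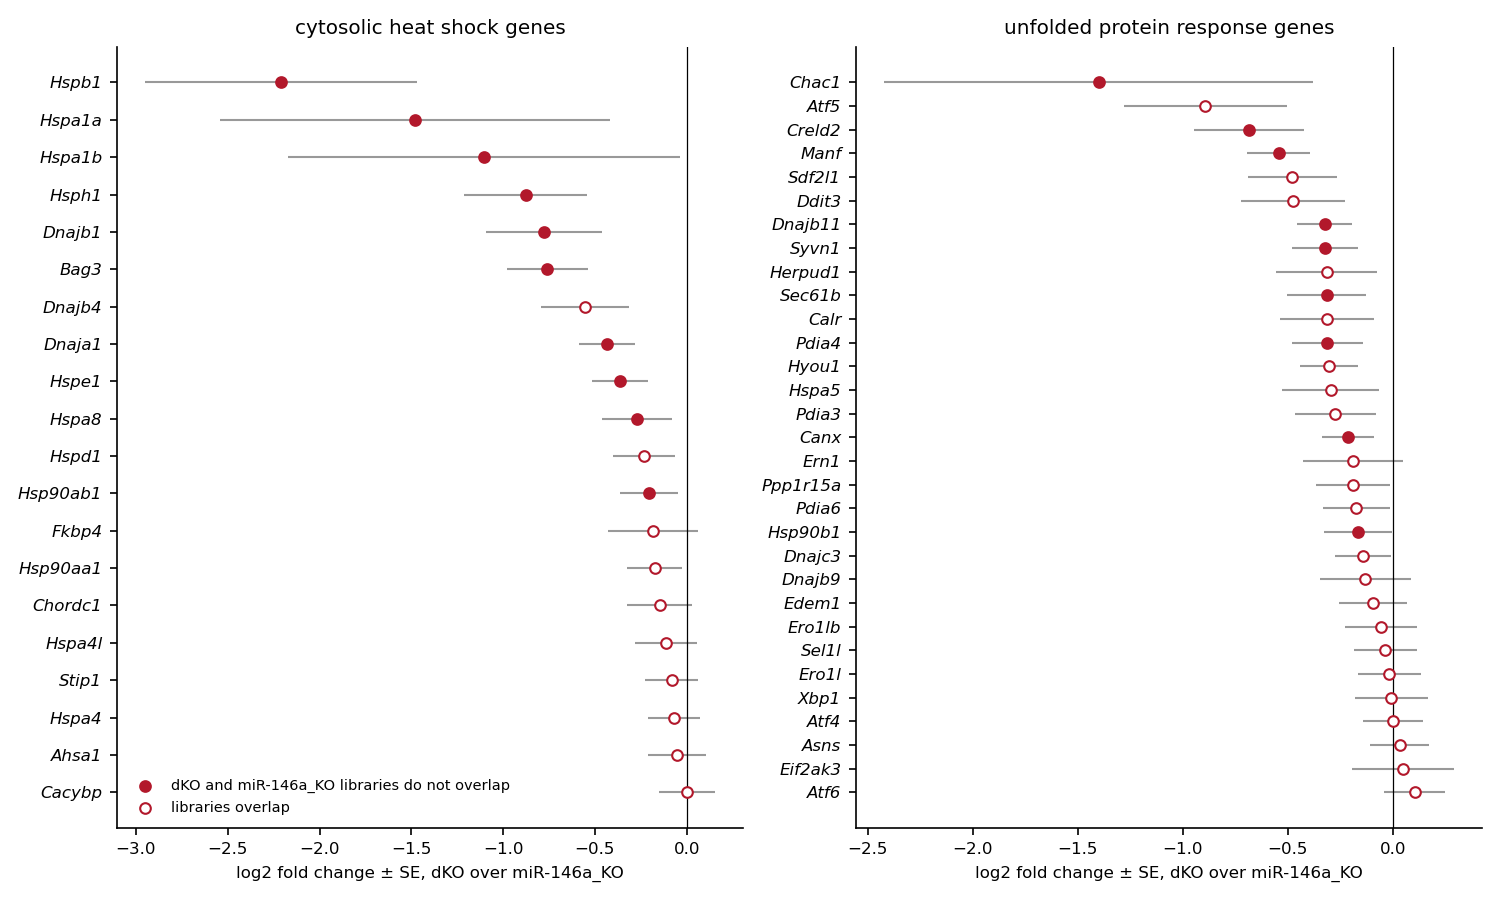
Log2 fold change ± SE of dKO over miR-146a_KO for the 20 cytosolic heat shock genes (left) and the 31 unfolded protein response genes (right); filled points mark genes whose dKO and miR-146a_KO libraries do not overlap. All 20 points on the left and 28 of 31 on the right lie below 0 (19 and 26 with median centring), and none passed the adjusted threshold.

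Promoters of these lists were read for the elements each response is known to use, and a few are printed to show them. The windows ran 250 bases before to 50 after each RefSeq start (GRCm38.p6), and both strands were searched. The heat shock element, searched as GAA, TTC and GAA in a row with 2 bases of any kind between neighbours, was in a window of 4 of the 17 heat shock list members with a promoter in the table (Chordc1, Hspd1, Hspe1 and Hsph1), beside 0.637% of 9569 tested genes and 0.603% of all 32851 promoters. The endoplasmic reticulum stress response element, searched as CCAAT and CCACG with 9 bases of any kind between them, was in 9 of 28 unfolded protein response members (Calr, Canx, Creld2, Dnajc3, Ero1lb, Hsp90b1, Hspa5, Pdia6 and Syvn1), beside 0.157% of tested genes and 0.119% of promoters. Neither element was found in the other list. The lists were written from general knowledge of these responses. A share above that of all genes therefore says nothing about the difference between dKO and miR-146a_KO. Hspd1 and Hspe1 hold the same matched bases, read from opposite strands, so their matches are not separate sites. A match is a string of letters and no measure of binding in these cells.

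Below are the 250 bases before the start of Hspe1, the mitochondrial HSP10 gene that shares this stretch head to head with Hspd1 (chr1:55087898-55088147, plus strand), and of Hspa5, the luminal HSP70 gene (chr2:34771840-34772089, plus strand). With them stand those of Creld2 (chr15:88819396-88819645, plus strand) and Hsp90b1, the luminal HSP90 gene (chr10:86705445-86705694, minus strand). Capitals mark the element, which occurs on both strands in overlapping form in Hspe1 and at separate places in Hsp90b1.
Hspe1: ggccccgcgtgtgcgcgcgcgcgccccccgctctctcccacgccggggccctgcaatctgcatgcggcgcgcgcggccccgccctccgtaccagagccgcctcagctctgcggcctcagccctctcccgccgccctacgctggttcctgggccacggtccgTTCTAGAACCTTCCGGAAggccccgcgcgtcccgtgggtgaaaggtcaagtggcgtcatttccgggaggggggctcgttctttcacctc
Hspa5: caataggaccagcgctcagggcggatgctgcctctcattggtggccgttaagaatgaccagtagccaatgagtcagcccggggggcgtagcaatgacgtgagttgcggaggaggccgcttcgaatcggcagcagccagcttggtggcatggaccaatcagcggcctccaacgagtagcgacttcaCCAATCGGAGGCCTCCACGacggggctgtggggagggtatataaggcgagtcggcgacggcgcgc
Creld2: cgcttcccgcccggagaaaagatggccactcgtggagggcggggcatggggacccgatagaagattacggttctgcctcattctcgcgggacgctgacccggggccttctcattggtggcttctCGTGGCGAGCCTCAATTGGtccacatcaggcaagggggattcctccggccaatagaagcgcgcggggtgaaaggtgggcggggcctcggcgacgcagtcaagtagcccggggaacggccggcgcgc
Hsp90b1: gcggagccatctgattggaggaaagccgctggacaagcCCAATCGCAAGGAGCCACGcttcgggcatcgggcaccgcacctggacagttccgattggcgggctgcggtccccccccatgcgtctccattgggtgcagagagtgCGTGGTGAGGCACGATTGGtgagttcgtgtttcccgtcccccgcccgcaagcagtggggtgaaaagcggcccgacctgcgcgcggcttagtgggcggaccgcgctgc
The differences of these 4 genes were -0.36 ± 0.15 for Hspe1, -0.30 ± 0.23 for Hspa5, -0.69 ± 0.26 for Creld2 and -0.16 ± 0.16 for Hsp90b1, and none passed (limma adjusted p = 1.00 each).

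Of the cell type lists, late granulocyte genes (median 0.45) and B-lineage genes (-0.66) stood farthest from 0 between dKO and miR-146a_KO, and 0 members of any cell type list passed. Granulocyte-monocyte progenitor genes had a median of -0.11, with 20 of 28 below 0 and 1 member, Dmkn (1.36 ± 0.61), at an unadjusted p under 0.05, a higher one chosen for the text after its value was seen. The lean to the lower side rested on single libraries, since the median was 0.05 with 16 of 28 above 0 without dKO replicate 2, and 15 of 28 lay below 0 without dKO replicate 4. The granulocyte fate regulator Gfi1 had 3.93, 2.91, 3.98 and 3.14 log2 CPM in dKO, against 3.62, 4.24 and 4.01 in miR-146a_KO (-0.47 ± 0.30). The primary granule protease genes Prtn3 (-0.38 ± 0.25) and Ctsg (-0.29 ± 0.23) overlapped likewise. With miR-146a present the list had a median of 0.63, and 27 of 28 members lay above 0. Of these, 18 had an unadjusted p under 0.05, beside 358 higher ones among all 11977 genes. The mean deviation of the list was 0.34, 0.63 and 0.57 in TIFAB_KO replicates 1 to 3. In WT it was 0.10, -0.12 and -0.60. The difference between the 2 effects was below 0 for 27 of 28 members (median -0.67). It had an unadjusted p under 0.05 for 12, beside 306 lower ones among all 11977 genes. Gfi1 had -1.78 ± 0.44 (interaction adjusted p = 0.544) and Prtn3 -1.49 ± 0.37 (0.575), and none of the list passed.

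Erythroid genes had a median of 0.09, with 25 of 34 above 0. The amino acid transporter gene Slc38a5 had 3.79, 4.35, 3.91 and 4.33 log2 CPM in dKO, against 3.78, 3.32 and 3.38 in miR-146a_KO (0.60 ± 0.23, limma adjusted p = 1.00), with the lowest dKO library just above the highest miR-146a_KO library. The carbonic anhydrase gene Car1 had 0.37 ± 0.19, the transcription factor gene Gata1 0.38 ± 0.21 and the ankyrin gene Ank1 0.27 ± 0.15. In TIFAB_KO against WT 31 of 34 members lay below 0 (median -0.30). The globin rows Hba-a1, Hba-a2, Hbb-bt and Hbb-bs are listed at 0 reads in all 7 libraries. Megakaryocyte and platelet genes had a median of 0.06, with 20 of 28 above 0 and 8 below, and -0.09 was their median without miR-146a_KO replicate 1. At an unadjusted p under 0.05 there were 2 higher members (7.14%, beside 0.877% of all genes) and 1 lower (3.57%, beside 1.02%). Named from the higher side beside Ppbp were the tubulin gene Tubb1 (1.82 ± 0.70) and the platelet glycoprotein gene Gp5 (0.39 ± 0.26). Stem and early progenitor genes had a median of 0.03, with 22 of 38 above 0 and 16 below, and -0.05 without miR-146a_KO replicate 1. Members ran from -0.88 to 0.68, and 1 had no overlap, a lower one (2.63%, beside 2.11% of all genes). Named from the higher side were Mllt3 (0.34 ± 0.15) and Bcl11a (0.26 ± 0.13).

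Late granulocyte genes had the highest median, 0.45, with 14 of 17 above 0. Their mean deviation was 1.01, -0.08, 1.79 and -1.81 in dKO replicates 1 to 4, against -0.17, -0.15 and -0.59 in miR-146a_KO, so the dKO libraries spread to both sides of the other group. The summed level of the 24 rows was 178 to 893 CPM in dKO and 208 to 317 CPM in miR-146a_KO, and Stfa1 and Stfa2 were at 0 reads. Mmp8, the neutrophil collagenase gene, was the 1 member with an unadjusted p under 0.05 (1.06 ± 0.35). S100a8 (1.06 ± 0.87) and Fcnb (0.80 ± 0.70) overlapped. Without dKO replicate 3 the median was 0.05 and 8 of 17 lay below 0, and without dKO replicate 4 it was 1.14. Over the 7 members that averaged at least 3 log2 CPM the median was 0.24.

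B-lineage genes had the lowest median, -0.66, with 14 of 15 tested members below 0. At an unadjusted p under 0.05 there were 2 lower members (13.3% of the list, beside 1.02% of all genes). That count of 2 became 0 without miR-146a_KO replicate 1 or 3 or dKO replicate 2 or 3. Most members were near the expression minimum, as only 3 averaged at least 3 log2 CPM, with a median of -0.23. Igll1, the surrogate light chain gene of B cell precursors, had 1.63, -0.31, 0.74 and 1.38 log2 CPM in dKO, against 2.69, 1.03 and 3.00 in miR-146a_KO (-1.38 ± 0.60). Ebf1, the factor that commits cells to the B lineage, had -1.40 ± 0.67, the complement receptor gene Cr2 -0.99 ± 0.64 and the B cell coactivator gene Pou2af1 -0.99 ± 0.68, and every one of these overlapped. The summed level of the 24 rows of the list was 884 to 1188 CPM in dKO and 885 to 1316 CPM in miR-146a_KO, and the B cell gene Ms4a1 had at most 4 reads in any of the 7 libraries. Without dKO replicate 2 the median was -0.35. The part of cells outside the sort in these values was not tested.

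Monocyte, macrophage and dendritic cell genes (median -0.15; H2-Eb1 -0.63 ± 0.55, Itgax -0.43 ± 0.47) had 0 members at an unadjusted p under 0.05. The same held for mast cell, basophil and eosinophil genes (-0.19; Gzmb -0.53 ± 0.42, Cd63 -0.36 ± 0.25), T and NK cell genes (-0.10; Lck -0.96 ± 0.48) and stromal and endothelial genes (-0.09). The mast cell, basophil and eosinophil list had a median of 0.98 between TIFAB_KO and WT, with 16 of 19 above 0. Its mean deviation was -0.28, 0.26 and 0.48 in TIFAB_KO replicates 1 to 3, against -0.17, -0.55 and -1.28 in WT. Its interaction median was -1.26, with 16 of 19 below 0, 6 at an unadjusted p under 0.05 and 0 called. Among all 11977 genes, 306 had an interaction below 0 at such a p.

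Immediate early genes, which respond within minutes to stimulation, were balanced, with 16 of 30 above 0 and a median of 0.01. Single libraries pulled to opposite sides, since 24 of 30 lay above 0 without miR-146a_KO replicate 1 (median 0.19) and 25 of 30 below 0 without miR-146a_KO replicate 2 (-0.17). Egr3 had 1.07 ± 0.52, Nr4a1 0.81 ± 0.39 and Egr2 0.69 ± 0.40 (limma adjusted p = 1.00 each). In TIFAB_KO against WT 29 of 30 lay below 0 (median -0.60), and the interaction values lay above 0 for 29 of 30 (median 0.57, 9 at an unadjusted p under 0.05, 0 called). Among all 11977 genes, 200 had an interaction above 0 at such a p. The mean deviation of the immediate early genes was 0.41, -0.57 and -0.42 in TIFAB_KO replicates 1 to 3. In WT it was 0.36, 0.58 and 0.47, so TIFAB_KO replicate 1 lay among the WT libraries. Interferon response genes were balanced, with 23 of 48 above 0, 25 below and a median of -0.01. No overlap was seen in 2 higher members (4.17%, beside 1.64% of all genes) and 1 lower (2.08%, beside 2.11%). Named from the lower side were the dynamin-like gene Mx2 (-1.88 ± 0.62) and the immunoproteasome genes Psmb8 (-0.48 ± 0.19) and Psmb9 (-0.41 ± 0.24). Among p53 targets (median -0.04, 16 of 26 below 0) the desmosome gene Perp had -1.0 ± 0.39 and Fdxr -0.37 ± 0.24. They were the only members without overlap between the groups, 2 of 26 (7.69%, beside 2.11% of all genes on the lower side). Plk2, which stood between them by moderated t, is not described. Ribosomal protein genes lay below 0 in 58 of 77 cases with a median of -0.09, and the stalk protein genes Rplp2 and Rplp1 had -0.38 ± 0.16 and -0.35 ± 0.19. Single values of ribosomal protein genes are uncertain, since reads can be split with their processed pseudogenes. S-phase genes (-0.05, Cdt1 -0.18 ± 0.13), G2 and mitosis genes (0.05, Kif11 0.24 ± 0.14) and glycolysis genes (-0.04, Pgam1 -0.39 ± 0.18) stayed near the median of all genes. So did the respiratory chain (-0.03), cholesterol synthesis (-0.03), apoptosis and survival (-0.07) and myeloid cytokine receptor (-0.03) lists, and 0 members of any of these passed. In 3 of 25 glycolysis genes every dKO library lay below every miR-146a_KO library (12%, beside 2.11% of all genes), and in 0 above.

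Many of these medians were small beside the spread between libraries. When each of the 7 libraries was left out in turn, 14 of the 26 list medians took the other sign at least once, and the other 12 did not. The 12 include the heat shock (-0.37 to -0.23), unfolded protein response (-0.29 to -0.16), B-lineage (-0.94 to -0.35) and late granulocyte (0.05 to 1.14) lists.

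**Figure D5:**
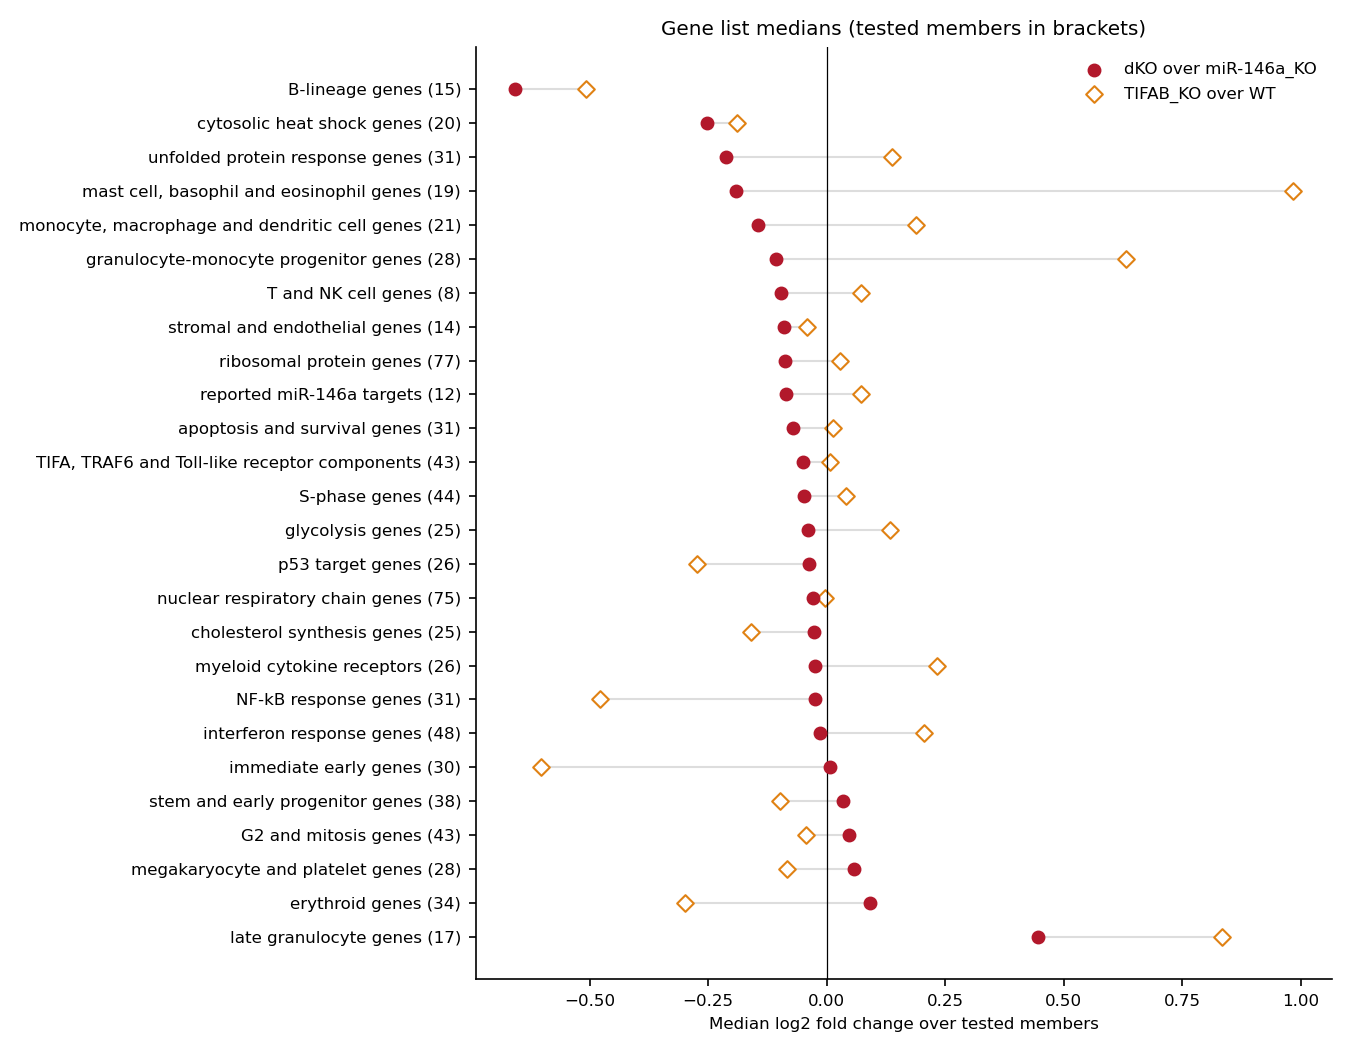
Median log2 fold change over the tested members of each gene list, for dKO over miR-146a_KO (red circles) and TIFAB_KO over WT (orange diamonds), with the number of tested members in brackets. For dKO over miR-146a_KO the medians run from -0.66 (B-lineage) to 0.45 (late granulocyte), and for immediate early genes the values are 0.01 and -0.60.

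The same loss with miR-146a present offers a comparison that shares no library with the one above. TIFAB_KO replicate 3 was the library least like the rest of the series (median r 0.944, with 10.7% of reads on 45S). It enters this comparison, the interaction values and the spread shared by all groups. In TIFAB_KO against WT 2 genes passed (0.0167%), which were again Tifab and H2afy, and 613 had an unadjusted p under 0.05 (5.12%). Across the 11977 genes the log2 fold changes of the 2 comparisons had a Pearson r of -0.005 and a Spearman rho of -0.09, and 45.2% of genes had the same sign in both; genes are not independent of one another, and no p is given. Tested directly, 0 genes had an effect of Tifab loss that differed between the miR-146a states (0% called by limma), and 506 had an unadjusted p under 0.05 (4.22%). For these 2 unadjusted counts, too, a share of about 0.05 would hold such a p with no true change. A p that misses the threshold does not show that the effects are alike.

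The 5 genes with the smallest interaction p were Atp1b2, Dio2, Spire1, Napsa and Rab6b, and none passed (limma adjusted p = 0.544 each). The sodium pump gene Atp1b2 had 0.42 ± 0.17 in dKO against miR-146a_KO and -0.76 ± 0.18 in TIFAB_KO against WT, a difference of 1.18 ± 0.25. Its means were 7.29 log2 CPM in dKO, 6.88 in miR-146a_KO, 6.68 in TIFAB_KO and 7.44 in WT, so each single knockout lay below WT and dKO was close to WT. The deiodinase gene Dio2 had its low level in WT, with -0.30 ± 0.22 and 1.11 ± 0.23 in the 2 comparisons, and means of 6.38 in dKO, 6.68 in miR-146a_KO, 6.47 in TIFAB_KO and 5.36 in WT. The actin nucleator gene Spire1 (1.07 ± 0.24), the aspartic protease gene Napsa (-1.09 ± 0.25) and the Rab GTPase gene Rab6b (1.70 ± 0.40) are given by their interaction values.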

How the data were processed

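The data were gene values of 13 libraries of amplified total RNA from LK cells (Ovation RNA-Seq System v2, Nextera XT). The submitters' processing notes name TopHat, featureCounts, limma and the build mm10, without versions. The authors deposited log2 CPM as limma's voom computes it (a prior of 0.5 read per gene, and 1 on the library total), which the values themselves show: whole reads came back for 100% of values within 0.01 read. Depth was 7.83 to 12.8 M reads.

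Limma 3.58.1 (R 4.3.3) was fitted to the log2 CPM of all 13 libraries with 1 mean per group (residual degrees of freedom 9, prior 9.55) and a variance trend, and p-values were Benjamini-Hochberg adjusted over 11977 genes, with under 0.05 called. The script was tested on simulated data. Errors are SD over libraries or SE of limma. Replicate numbers shared by the groups do not pair the libraries. Gene positions are those of GENCODE M21, matched for 22724 of 24062 rows (94.4%). The members, the 26 gene lists and the naming rule were chosen with earlier results of these data known. Named were Tifab with its neighbours within 1 Mb, then up to 10 genes per direction by size among called genes averaging 1 log2 CPM or more without overlap, leaving out unnamed loci, filled by smallest p. Up to 4 members per list and 5 genes by interaction p were added; of weak lists fewer are named. Alternatives were other filters, a prior of 2 reads, median centring, quantile normalization, other variance models and weights, only the compared libraries, a replicate block, the 45S share as covariate, other thresholds and each library left out.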

Additional observations from a re-analysis of the deposited data

Results flagged for a closer look

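Among the 4 dKO libraries, 5 of the genes named above had 1 library set apart from the other 3. The measure was the ratio of its gap to the group's whole range (Dixon's 95% critical value). Chance alone flags about 1 in 20 groups, and 105 values were looked at in this way, so 5 flags are no excess. A high ratio can go with a small gap where the other 3 lie close together, as in Bcl11a. Itgax, a dendritic cell integrin, had a ratio of 0.936, with 4.38 log2 CPM in dKO replicate 3 and 1.86 to 2.02 in the other 3. Car1 had 0.914, with 9.74 log2 CPM in replicate 1 and 10.50 to 10.57 in the others. Manf had 0.883, with 5.27 in replicate 1 and 4.98 to 5.01 in the others. Bcl11a had 0.875, with 7.70 in replicate 1 and 7.81 to 7.82 in the others. Nr4a1 had 0.847, with 6.59 in replicate 4 and 5.24 to 5.45 in the others. The flagged library was replicate 1 in 3 of these genes, and none of the 5 was called.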

How the results depend on the processing

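Tifab and 4930503L19Rik were called under every alternative fit, and H2afy under all except no variance trend (adjusted p = 0.0801) and the fit without miR-146a_KO replicate 2. The number of genes higher in dKO, 4 as reported, was 1 with a minimum mean of 3 log2 CPM or only the compared libraries, 2 with no variance trend or limma-voom weights, and 1 to 3 without single libraries, so all 4 were never called together once any library was left out. The number lower, 2 as reported, was 1 with no variance trend, 4 with only the compared libraries, where Hspa1a and Hspb1 joined, and 1 to 2 without single libraries. Interaction calls numbered 0 to 1, the 1 being without TIFAB_KO replicate 1. Calls in TIFAB_KO against WT, 2 as reported, were 0 with no filter, quantile normalization or no variance trend, 5 with quality weights, 1 with only the compared libraries or the 45S share as covariate, and 0 to 44 without single libraries. Same-numbered dKO and miR-146a_KO libraries deviated with r of 0.03, 0.21 and -0.09, so the numbers are not taken as pairs; with the replicate block 1 gene was higher and 2 lower. Values near 0 changed sign: Tifa was 0.026 with quality weights, -0.22 to 0.12 without single libraries and 0.12 without both TIFAB_KO replicate 3 and dKO replicate 3. Traf6 was 0.015 with median centring, 0.055 with quality weights, 0.11 with the block and -0.058 to 0.11 without single libraries. Irak1 was -0.10 to 0.0038 without single libraries. The heat shock median was -0.37 with the block or without dKO replicate 4. Where the cause of a shift is not named, the cause was not tested. Depth limits genes such as Stard6 and 1700112E06Rik, with at most 15 reads in a miR-146a_KO library.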
